A study of Mus musculus with 9 samples.

Results

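The proteasome subunits are a set of 38 genes whose products build the complex that degrades ubiquitin-tagged proteins. They were chosen by symbol, and all 38 were found in the count tables of both populations, out of 37187 genes in the LSK table and 45076 in the neutrophil table. They were divided by position in the complex into 6 classes, which are 7 alpha subunits (Psma1 to Psma7) and 7 constitutive beta subunits (Psmb1 to Psmb7) of the 20S core, 3 immunoproteasome beta subunits (Psmb8, Psmb9, Psmb10), 6 ATPases (Psmc1 to Psmc6) and 11 non-ATPase subunits (Psmd genes) of the 19S cap, and 4 alternative activators (Psme1 to Psme4).

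The 20S core is a barrel of alpha rings around beta rings, and the catalytic sites lie on the inner beta subunits Psmb5, Psmb6 and Psmb7. Interferon-responsive cells replace these with Psmb8, Psmb9 and Psmb10, and the resulting immunoproteasome is known for producing peptides for MHC class I. The 19S cap recognises ubiquitin chains, removes them and unfolds the substrate with its ATPase ring, whereas the Psme activators open the core without ubiquitin. When proteasome activity is short, the transcription factor encoded by Nfe2l1 is known to raise subunit genes together through antioxidant response elements in their promoters.

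Gene expression was measured by RNA-seq in sorted bone marrow cells of mice aged 4 to 12 weeks that lacked Spop (labelled Spop(D/D)) or carried it intact (Spop(+/+)). Spop is the substrate adaptor of a CUL3 ubiquitin ligase. There were 2 knockout (KO) and 2 wild-type (WT) libraries of LSK cells, the lineage-negative Sca-1+ Kit+ fraction that holds stem and progenitor cells, and 3 KO and 2 WT libraries of Ly6G+ neutrophils. The recombinase and promoter behind the deletion, and whether the libraries came from separate animals, were not given in the sources used here, and the p-values speak for the spread among these libraries alone.

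Counted reads ranged from 18827892 to 27434086 per library. Spop itself had 312 and 306 CPM (read counts relative to library size, scaled by TMM) in KO LSK libraries, against 380 and 390 CPM in WT LSK libraries, which is -0.32 on the log2 scale (SE 0.09, edgeR adjusted p = 0.0118). In neutrophils it had 158, 178 and 210 CPM in KO libraries, against 135 and 194 CPM in WT libraries, which overlapped (log2 0.15, SE 0.40, edgeR adjusted p = 0.901). The fall in LSK cells was small, and both KO libraries lay below both WT libraries for 38.3% of all genes there. These counts therefore did not check the genotype labels in either population. The second KO LSK library carries a neutrophil entry in 1 of its label fields, but its title and source name LSK cells, and Ly6g had 0 reads in all 4 LSK libraries. Of the neutrophil libraries, 2 stood apart. The second WT library held 24990 CPM of 5 MHC class II genes, against 17.0 to 542 CPM in the others, and 36912 CPM of 10 neutrophil markers, against 208249 to 644385 CPM. The third KO library held 18195 CPM of 7 red cell genes, against 2.17 to 3633 CPM in the others, and 18.2% of its reads came from S100a8.

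In KO LSK cells the proteasome genes were higher throughout the complex. Of the 38 members, 33 rose and 0 fell at an adjusted p under 0.05 (edgeR quasi-likelihood test, Benjamini-Hochberg adjustment over 13008 genes), with a median log2 fold change of 0.51, a 1.42-fold difference. Over all genes tested, 42.2% were called, 21% as risen and 21.2% as fallen, with a median log2 fold change of -0.03. The members took 1.19% and 1.14% of counted reads in KO LSK libraries, against 0.955% and 0.886% in WT LSK libraries. Both KO libraries lay above both WT libraries for 35 of the 38 members, against 34.6% of all genes, and the exceptions were Psmb9, Psme1 and Psme4. The 19S cap had the larger shifts, with a median log2 fold change of 0.66 over 17 genes, beside 0.44 over the 14 constitutive core genes and 0.29 over the 3 immunoproteasome genes.

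The number of members called depended on the libraries in the fit. Without the second WT library 19 of the 38 were called, and 0 were called, as were 0 of all genes, when the contrast was taken from a fit of all 9 libraries, which shared 1 estimate of the spread and also changed the genes tested and the scaling factors. Scaling by total counted reads alone left 23 called, with a median of 0.35 for the members and -0.19 for all genes. In all these counts no member fell, and 18 members were called in each of the 11 settings other than the fit of all 9 libraries. As bulk measurements, these values cannot tell more cells of a type with high proteasome transcripts apart from more transcripts per cell. Monocyte and macrophage markers summed over 8 genes were 961 and 1435 CPM in KO LSK libraries, against 125 and 174 CPM in WT LSK libraries, and none of the 8 was at 0 in any library. That sum was carried by Ly6c2, F13a1, Ccr2 and Csf1r, whereas the macrophage genes C1qa, C1qb and C1qc lay lower in both KO libraries and Adgre1 overlapped. C1qb, for example, had 0.417 and 0.319 CPM in KO LSK libraries, against 10.4 and 12.4 CPM in WT LSK libraries. The 8 progenitor markers summed to 2751 and 3004 CPM in KO LSK libraries, against 4805 and 4580 CPM in WT LSK libraries. Kit, Flt3, Hlf, Mecom, Meis1, Cd34 and Gata2 lay lower in both KO libraries. Ly6a, which encodes Sca-1, went the other way, with 193 and 227 CPM in KO LSK libraries, against 170 and 157 CPM in WT LSK libraries. The part of these shifts in the proteasome result was not tested.

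**Figure D1:**
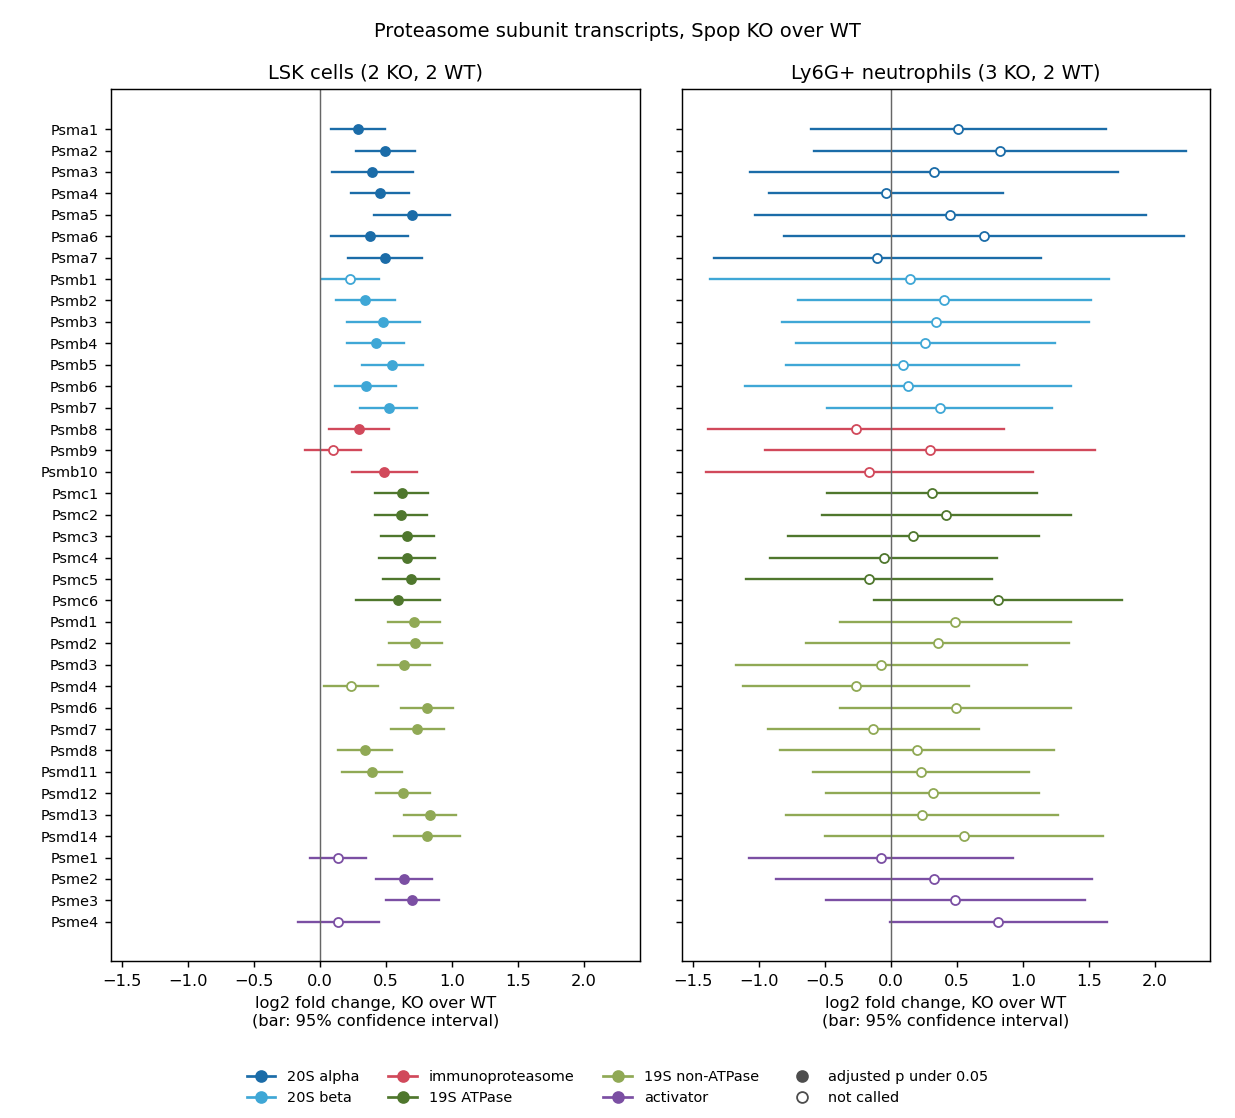
Log2 fold change of each of the 38 proteasome subunits in Spop KO over WT, in LSK cells (left) and Ly6G+ neutrophils (right), on a shared horizontal axis; bars are 95% confidence intervals from edgeR, filled points passed an adjusted p of 0.05, and colours mark the 6 classes. In LSK cells 33 points are filled and all 38 lie right of 0 (under scaling by total counted reads Psmb9, Psme1 and Psme4 do not), whereas in neutrophils none is filled and the bars are several times wider.

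All 7 alpha subunits of the core rose in KO LSK cells, with log2 fold changes between 0.29 (Psma1) and 0.69 (Psma5). Psma5 had 129 and 99.7 CPM in KO LSK libraries, against 74.0 and 67.6 CPM in WT LSK libraries. Every KO value was above every WT value, and the 1.62-fold rise had an edgeR adjusted p of 0.00124. Psma2 had 360 and 332 CPM in KO LSK libraries, against 265 and 226 CPM in WT LSK libraries (log2 0.49, SE 0.10, edgeR adjusted p = 0.00193). The weakest call in the ring was Psma6, with 709 and 529 CPM in KO LSK libraries, against 500.1 and 455 CPM in WT LSK libraries. Here the KO libraries differed more from each other than the lower of them did from the WT libraries (log2 0.37, SE 0.13, edgeR adjusted p = 0.0422).

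Of the 7 constitutive beta subunits, 6 rose, and their log2 fold changes reached 0.55. Psmb5, which carries the chymotrypsin-like site that proteasome inhibitors such as bortezomib occupy, had 110 and 114 CPM in KO LSK libraries, against 80.2 and 73.5 CPM in WT LSK libraries. The groups were well separated, at 1.46-fold (log2 0.55, SE 0.11, edgeR adjusted p = 0.00132). Psmb7, with the trypsin-like site, had 149 and 159 CPM in KO LSK libraries, against 111 and 105 CPM in WT LSK libraries (log2 0.52, SE 0.10, edgeR adjusted p = 0.00117). Psmb6, with the caspase-like site, had 406 and 367 CPM in KO LSK libraries, against 331 and 278 CPM in WT LSK libraries (log2 0.34, SE 0.11, edgeR adjusted p = 0.0195). Psmb5 shares 12.1% and Psmb7 11.8% of exon length with other genes. Psmb1, a non-catalytic beta subunit, did not pass the test. It had 461 and 421 CPM in KO LSK libraries, against 401 and 352 CPM in WT LSK libraries (log2 0.23, SE 0.10, edgeR adjusted p = 0.0832).

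Since the constitutive catalytic genes and the cap genes moved in the same direction, the DNA before 3 of them is shown here, as the 250 bases upstream of the RefSeq transcription start (build GRCm38.p6), printed from the 5′ end on the gene's own strand. Capitals mark a match to the antioxidant response element core, TGACNNNGC on either strand, where N is any base. Psmb5 lies on the minus strand at chr14:54617996-54618245, Psmb6 on the plus strand at chr11:70525107-70525356, and Psmd14, a cap gene with one of the larger rises and no match, on the plus strand at chr2:61711444-61711693.
Psmb5: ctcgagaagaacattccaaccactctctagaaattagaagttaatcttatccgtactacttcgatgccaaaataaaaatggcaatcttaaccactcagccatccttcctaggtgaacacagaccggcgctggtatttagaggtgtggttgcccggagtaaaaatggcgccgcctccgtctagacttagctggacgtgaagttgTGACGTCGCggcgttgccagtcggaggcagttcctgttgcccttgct
Psmb6: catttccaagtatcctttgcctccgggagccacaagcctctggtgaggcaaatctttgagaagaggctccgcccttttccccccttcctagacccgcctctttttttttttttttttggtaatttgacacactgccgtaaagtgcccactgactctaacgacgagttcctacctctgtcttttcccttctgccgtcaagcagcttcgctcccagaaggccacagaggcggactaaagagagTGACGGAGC
Psmd14: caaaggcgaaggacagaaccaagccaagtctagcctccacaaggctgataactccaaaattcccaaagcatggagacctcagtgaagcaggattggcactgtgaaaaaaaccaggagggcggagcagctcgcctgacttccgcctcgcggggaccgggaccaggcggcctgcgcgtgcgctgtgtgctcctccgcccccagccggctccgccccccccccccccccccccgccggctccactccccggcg
The match in Psmb5 spans bases -47 to -39 from the start, and that in Psmb6 spans bases -9 to -1. Of the 32 members with a promoter in the RefSeq table, 4 held this core (Psmb5, Psmb6, Psmc6 and Psmd12), beside 11.5% of 27025 genes. An interferon-stimulated response element core, which is GAAA, any 2 bases and GAAA on either strand, was found in 2 of the 32 (Psmb3 and Psmd4), beside 3.46% of genes. The gamma-activated site core TTCNNNGAA occurred once, in Psmb8 at bases -97 to -89, beside 8.13% of genes. That window (chr17:34197945-34198194) is upstream of a RefSeq start but lies inside the Psmb8 gene as annotated in GENCODE M21 (chr17:34197721-34201454). These are matches of letters in 1 window and describe the sequence alone.

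The immunoproteasome subunits followed the core less uniformly in LSK cells, and 2 of the 3 rose. Psmb10, the beta2i subunit, had 232 and 277 CPM in KO LSK libraries, against 196 and 168 CPM in WT LSK libraries (log2 0.48, SE 0.11, edgeR adjusted p = 0.00464). Psmb8, the beta5i subunit, had 518 and 581 CPM in KO LSK libraries, against 483 and 412 CPM in WT LSK libraries (log2 0.29, SE 0.11, edgeR adjusted p = 0.0392). Psmb9, the beta1i subunit, had 287 and 315 CPM in KO LSK libraries, against 298 and 265 CPM in WT LSK libraries. The Psmb9 values of the groups overlapped (log2 0.09, SE 0.10, edgeR adjusted p = 0.467), and its direction turned under other settings, with values from -0.06 to 0.20. Psmb8 (chr17:34197721-34201454, plus strand, GRCm38, GENCODE M21) and Psmb9 (chr17:34181987-34187764, minus strand) lie on either side of Tap1 in the MHC region. Psmb8 shares 14.7% and Psmb9 5.79% of exon length with genes on the opposite strand, and whether counting used the strand was not given in the sources used here.

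Beside their constitutive counterparts, the immunoproteasome transcripts made up a similar or smaller part in the knockout. Psmb8 over Psmb5, per transcript length within a library, was 2.59 and 2.81 in KO LSK libraries, against 3.33 and 3.10 in WT LSK libraries. Psmb9 over Psmb6 was 0.417 and 0.506 in KO LSK libraries, against 0.532 and 0.563 in WT LSK libraries. These ratios did not overlap between genotypes, whereas Psmb10 over Psmb7 was 1.38 and 1.54 in KO LSK libraries, against 1.57 and 1.42 in WT LSK libraries, and overlapped. The immunoproteasome share of the 6 catalytic transcripts was 48.2% and 52.5% in KO LSK libraries, against 52.7% and 52.6% in WT LSK libraries. With 2 libraries a group an exact permutation test cannot go below 0.333, so no test was made of these ratios.

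**Figure D2:**
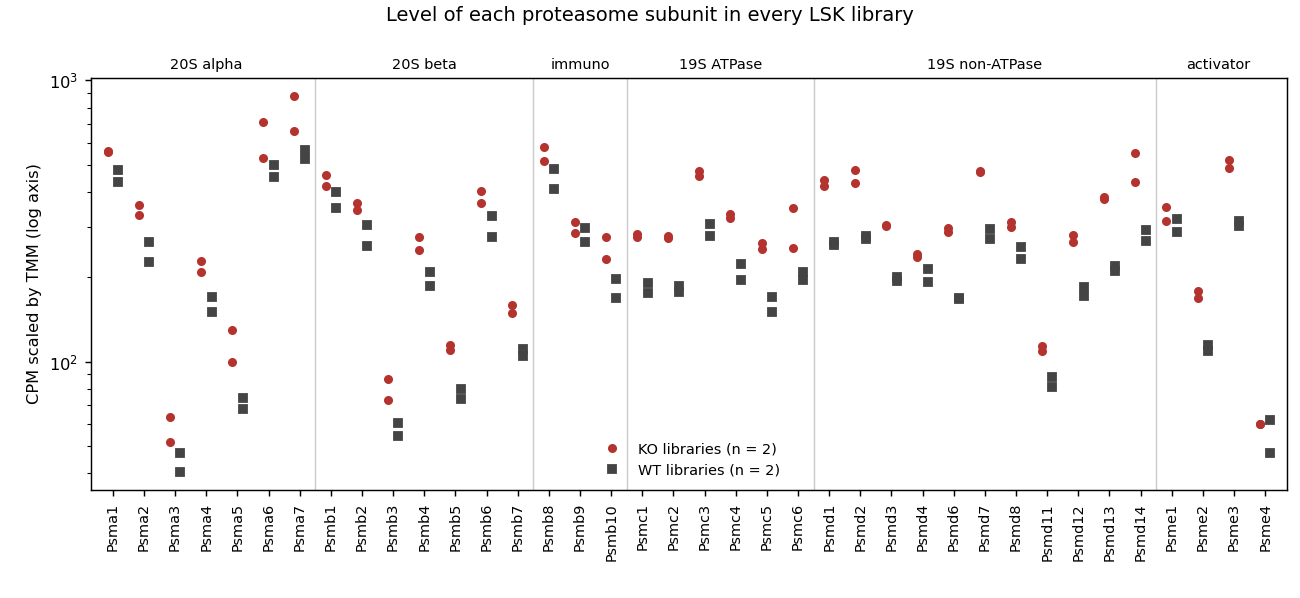
Level of each proteasome subunit in CPM scaled by TMM (log axis) in the 2 KO (red circles, left) and 2 WT (grey squares, right) LSK libraries, by class. The KO points lie above the WT points for 35 of the 38 genes, and Psmb9, Psme1 and Psme4 overlap.

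All 6 ATPases of the 19S cap rose, within a narrow range of log2 fold changes from 0.59 (Psmc6) to 0.69 (Psmc5). Psmc3, the Rpt5 subunit, had 475 and 458 CPM in KO LSK libraries, against 310 and 281 CPM in WT LSK libraries (log2 0.66, SE 0.09, edgeR adjusted p = 0.000129). Psmc5, the Rpt6 subunit, had 252 and 264 CPM in KO LSK libraries, against 170 and 150.3 CPM in WT LSK libraries, a 1.61-fold rise (SE 0.10 on the log2 scale, edgeR adjusted p = 0.000133). In both genes the KO values lay close together and far above the WT values. Psmc6 varied more, with 353 and 253 CPM in KO LSK libraries, against 208 and 194 CPM in WT LSK libraries (SE 0.14, edgeR adjusted p = 0.00838).

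Among the 11 non-ATPase cap subunits 10 rose, and the 3 largest shifts of the whole complex were here. Psmd13, the Rpn9 subunit of the lid, had 380 and 384 CPM in KO LSK libraries, against 219 and 210 CPM in WT LSK libraries, a 1.78-fold rise (log2 0.83, SE 0.09, edgeR adjusted p = 1.67e-05). Psmd6, the Rpn7 subunit, had 299 and 289 CPM in KO LSK libraries, against 167 and 169 CPM in WT LSK libraries (log2 0.81, SE 0.09, edgeR adjusted p = 2.29e-05). The KO and WT libraries of these genes were separated by many times the gap within a genotype. Psmd14, the Rpn11 deubiquitinase that removes ubiquitin chains as substrates enter, had 551 and 435 CPM in KO LSK libraries, against 293 and 269 CPM in WT LSK libraries (log2 0.81, SE 0.12). Psmd4, the ubiquitin receptor Rpn10, was the member of this class that did not pass. It had 235 and 241 CPM in KO LSK libraries, against 214 and 191 CPM in WT LSK libraries (log2 0.23, SE 0.10, edgeR adjusted p = 0.0675). Psmd13 shares 10.1% of its exon length with Sirt3 on the opposite strand.

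Of the activators, 2 of 4 rose. Psme3, the nuclear activator PA28gamma, had 489 and 520 CPM in KO LSK libraries, against 317 and 305 CPM in WT LSK libraries (log2 0.70, SE 0.09, edgeR adjusted p = 7.01e-05). Psme1 and Psme2 encode the alpha and beta chains that together form the interferon-inducible PA28 ring, and their values differed. Psme2 had 179 and 168 CPM in KO LSK libraries, against 114 and 109 CPM in WT LSK libraries, 1.56-fold higher (edgeR adjusted p = 0.000234). Psme1 had 317 and 354 CPM in KO LSK libraries, against 322 and 289 CPM in WT LSK libraries, and the groups overlapped (log2 0.14, SE 0.10, edgeR adjusted p = 0.291). Psme4, the activator PA200, had 59.8 and 60.0 CPM in KO LSK libraries, against 47.1 and 61.8 CPM in WT LSK libraries (log2 0.14, SE 0.14, edgeR adjusted p = 0.462). Like Psmb9, Psme1 and Psme4 were below 0 in at least 1 other setting.

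Within a library the ratio of cap to core was higher in both KO LSK libraries than in both WT LSK libraries. The log2 ratio of the mean 19S to the mean 20S level per length was -0.71 and -0.55 in KO LSK libraries, against -0.91 and -0.85 in WT LSK libraries, without overlap. The KO libraries differed more from each other than the lower of them did from the nearer WT library. With 2 libraries a group this ratio was not tested, and for 34.6% of all genes both KO libraries lay above both WT libraries. The median principal transcript was 1904 bases long in the non-ATPase class and 1614 in the ATPase class, beside 1201 in the alpha and 899 in the beta class. The part of transcript length in the difference in ratio was not tested.

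Genes that assemble, accompany or feed the proteasome were read from 6 lists in the same LSK test. Over all genes in that test 42.2% were called, 21% as risen and 21.2% as fallen, with a median log2 fold change of -0.03. The lists are short and were not tested as sets, so a count near these shares does not set a list apart. Of 8 assembly chaperones 3 rose and 0 fell, namely Psmg1, Psmg3 and Psmg2, which help build the alpha ring, with a list median of 0.22. Psmg1 had 134 and 128 CPM in KO LSK libraries, against 90.3 and 73.3 CPM in WT LSK libraries (log2 0.68, SE 0.12). The chaperone Pomp, which guides beta ring assembly, had a log2 fold change of 0.10 (edgeR adjusted p = 0.443).

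Of 9 proteasome-bound proteins 6 rose and 1 fell, with a median of 0.31. Usp14, a deubiquitinase of the cap, had 303 and 330 CPM in KO LSK libraries, against 166 and 166 CPM in WT LSK libraries, a 1.91-fold rise (edgeR adjusted p = 9.55e-06) that exceeded that of every member. Usp14 shares 26% of its exon length with other genes, mainly Thoc1 on the opposite strand. Uchl5, another cap deubiquitinase, rose with a log2 fold change of 0.54, and Txnl1, a cap-bound thioredoxin, with 0.32. The gene that fell was Psma8, the testis-type alpha subunit, which had 6.05 and 6.65 CPM in KO LSK libraries, against 17.1 and 12.0 CPM in WT LSK libraries (log2 -1.19).

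Of 10 genes of transcriptional control 4 rose and 0 fell, with a median of 0.23. The 4 were Sel1l (log2 0.53), Syvn1 (0.58), Nploc4 (0.44) and Vcp (0.45), which act in the export of proteins from the endoplasmic reticulum to the proteasome. Nfe2l1 itself had 136 and 123 CPM in KO LSK libraries, against 130 and 134 CPM in WT LSK libraries, which overlapped (log2 -0.03, edgeR adjusted p = 0.839). Of 11 ubiquitin and shuttle genes 6 rose and 0 fell, with a median of 0.26, led by the ubiquitin-activating enzyme Uba1 (log2 0.57) and by the shuttle Rad23b (0.39). Ubqln1, another shuttle protein, rose with a log2 fold change of 0.26.

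Genes of MHC class I peptide loading gave 5 rises and 1 fall among 13, with a median of 0.26. Calr, an endoplasmic reticulum chaperone, had 3072 and 3521 CPM in KO LSK libraries, against 1209 and 1167 CPM in WT LSK libraries, a 2.77-fold rise (edgeR adjusted p = 9.38e-07). Pdia3, a disulfide isomerase of the loading complex, rose 1.91-fold and the peptide-trimming enzyme Erap1 1.39-fold. The peptide transporter gene Tap2 fell, with 191 and 215 CPM in KO LSK libraries, against 252 and 262 CPM in WT LSK libraries. Its partner Tap1, which neighbours Psmb9, had a log2 fold change of 0.27 and did not pass (edgeR adjusted p = 0.0737). B2m, H2-K1 and Irf1 lay lower in both KO LSK libraries than in both WT LSK libraries but did not pass. Of 15 interferon-stimulated genes 6 rose and 1 fell, with a median of 0.39. The smallest p-values were those of Gbp3 (log2 0.98), Oas1a (0.84), Isg15 (0.61) and Oasl2 (0.39). Gbp2 and Rsad2 went the other way and lay lower in both KO LSK libraries.

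In neutrophils no proteasome subunit passed the test for KO against WT. The count was 0 of 38 at an adjusted p under 0.05, beside 0% of 12836 genes, and 0 members but 1787 genes had an unadjusted p under 0.05. DESeq2 called 891 genes in the same comparison and 0 members. The median log2 fold change of the members was 0.30, beside 0.02 for all genes, and 28 of the 38 were above 0. That median was 0.03 without the third KO library and -0.46 when libraries were scaled by total counted reads alone (-0.64 for all genes). No direction can therefore be given for the set. The 95% intervals had a median half-width of 1.0 on the log2 scale, beside 0.21 in LSK cells, so changes of the size seen in LSK cells were mostly not detectable with these libraries. The narrowest half-width of any member in neutrophils was 0.80. Psmd7 was the only member whose interval in neutrophils ended below its LSK value, at 0.67 against 0.74, from an estimate of -0.13.

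The third KO neutrophil library was the highest of the 5 for 13 of the 14 constitutive core subunits, Psma4 being the exception. Its TMM factor was 0.62, against 0.92 to 1.58 in the other neutrophil libraries, and a lower factor gives higher CPM. The members took 0.438% of its counted reads, against 0.441% to 0.772% in the others. The share of all genes that were highest in this library was not counted, so the count does not set the core subunits apart. Psma2 had 189, 188 and 506 CPM in KO neutrophil libraries, against 135 and 197 CPM in WT neutrophil libraries (log2 0.83, SE 0.60, unadjusted p = 0.208 and adjusted p = 0.576 by edgeR). Psma6 showed the same spread, with 224, 240 and 698 CPM in KO neutrophil libraries, against 195 and 280 CPM in WT neutrophil libraries. In both genes the first 2 KO libraries lay within the WT range. The log2 ratio of 19S to 20S levels was -0.84, -0.81 and -1.82 in KO neutrophil libraries, against -0.87 and -1.45 in WT neutrophil libraries. The 2 libraries with low ratios were the 2 that stood apart in cell type markers.

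Psme4 came nearest to a difference in neutrophils. It had 36.9, 36.7 and 30.8 CPM in KO neutrophil libraries, against 18.3 and 21.3 CPM in WT neutrophil libraries, without overlap (log2 0.81, SE 0.35, unadjusted p = 0.0516 and adjusted p = 0.363 by edgeR). Psmc6, the Rpt4 ATPase, had 72.0, 64.7 and 101 CPM in KO neutrophil libraries, against 36.2 and 54.0 CPM in WT neutrophil libraries, also without overlap (log2 0.81, unadjusted p = 0.0809, adjusted p = 0.416 by edgeR). Psmd6 had 94.9, 82.8 and 122 CPM in KO neutrophil libraries, against 72.9 and 69.5 CPM in WT neutrophil libraries (log2 0.49, edgeR adjusted p = 0.592). Psmd1, the Rpn2 scaffold of the cap base, had 107, 99.2 and 73.5 CPM in KO neutrophil libraries, against 61.0 and 72.1 CPM in WT neutrophil libraries (log2 0.49, edgeR adjusted p = 0.594). In all, every KO library lay above every WT library for 8 members, beside 17% of genes, and below for 1 (Psmd4), beside 17.5% of genes.

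The immunoproteasome genes of neutrophils varied between libraries of 1 genotype more than between genotypes. Psmb8 had 167, 264 and 204 CPM in KO neutrophil libraries, against 172 and 337 CPM in WT neutrophil libraries. Psmb9 had 162, 315 and 341 CPM in KO neutrophil libraries, against 153 and 291 CPM in WT neutrophil libraries. Psmb10 had 65.6, 179 and 111 CPM in KO neutrophil libraries, against 98.9 and 167 CPM in WT neutrophil libraries. The second KO and the second WT library were high for each of the 3, as was the third KO library for Psmb9. The immunoproteasome share of the catalytic transcripts was 47.3%, 64.1% and 44.2% in KO neutrophil libraries, against 44.5% and 61.9% in WT neutrophil libraries.

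Other readouts moved with these libraries in different ways. Summed CPM over the 15 interferon-stimulated genes was 1023, 3399 and 1184 in KO neutrophil libraries, against 490 and 528 in WT neutrophil libraries, so the second KO library was the highest and the second WT library was not raised. Their median log2 fold change was 2.21, and 0 of 15 passed the adjusted threshold. B cell markers summed to 4.73, 3.28 and 10.3 CPM in KO neutrophil libraries, against 73.6 and 1815 CPM in WT neutrophil libraries, of which the highest was the second WT library. The part of interferon-stimulated genes or of other cell types in the immunoproteasome values was not tested. The interferon-inducible activator Psme1 had 130.2, 216 and 211 CPM in KO neutrophil libraries, against 179 and 213 CPM in WT neutrophil libraries, and Psme2 had 76.0, 119 and 178 CPM in KO neutrophil libraries, against 69.9 and 129 CPM in WT neutrophil libraries.

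**Figure D3:**
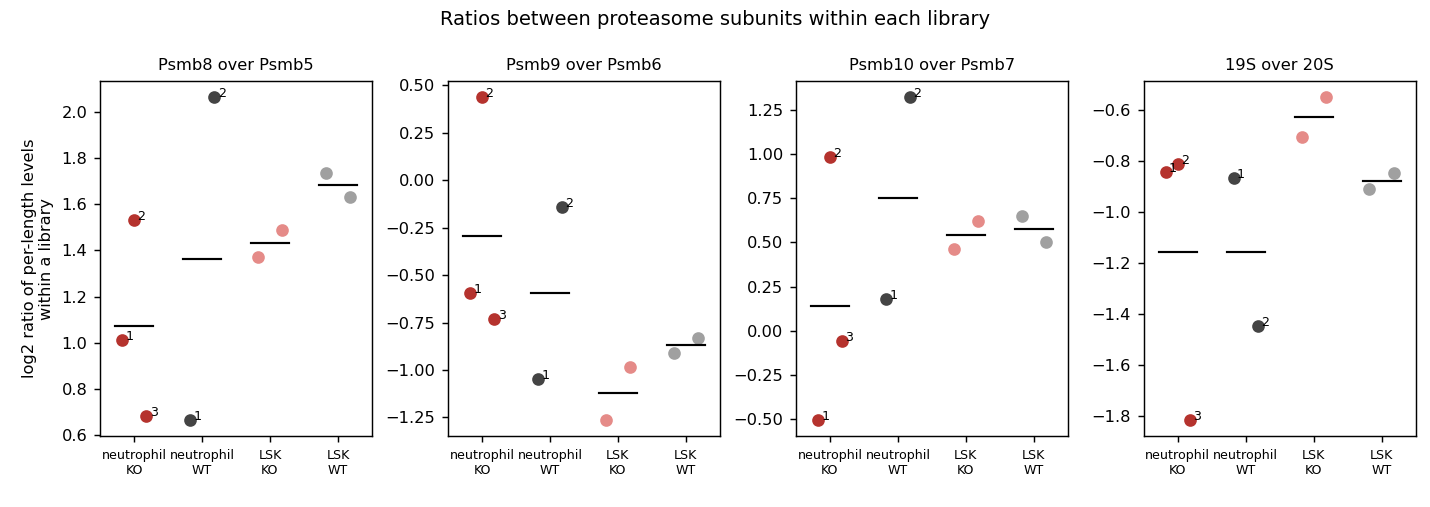
Log2 ratio within each library, from levels per transcript length, of Psmb8 over Psmb5, Psmb9 over Psmb6, Psmb10 over Psmb7 and the mean 19S over the mean 20S level. Points are libraries, black lines are group means and digits beside neutrophil points are replicate numbers. Among the neutrophil libraries the second KO and second WT are highest in the first 3 panels, and the third KO and second WT are lowest in the last.

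A fit of all 9 libraries gave the interaction, which asks if the knockout effect of a gene was unequal in neutrophils and LSK cells. None of the 38 members passed (0 of 38, beside 0.029% of 13816 genes), and 1 had an unadjusted p under 0.05. The KO effect was smaller in neutrophils for 31 members and larger for 7, with a median difference of -0.30, beside -0.21 for all genes. Psmd7, a lid subunit that pairs with Psmd14, had the smallest p (difference -0.92, SE 0.36, unadjusted p = 0.033, adjusted p = 0.278 by edgeR). The next in that direction were Psmc4 (-0.77), Psmc5 (-0.90), Psmd4 (-0.55) and Psmd13 (-0.66). In the other direction Psme4 (0.63, edgeR adjusted p = 0.418) came first, and Psma2 (0.27), Psmc6 (0.17), Psma6 (0.26) and Psma1 (0.16) followed. The rise in LSK cells is therefore not shown to be particular to them.

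Neutrophils and LSK cells also differed in which proteasome transcripts were abundant. Expressed per 1000 reads of the 38 members, which does not depend on scaling between libraries, 7 members were higher in all 5 neutrophil libraries than in all 4 LSK libraries, 8 were lower and 23 overlapped. On the same scale 13.5% of 13816 genes lay above in all neutrophil libraries and 30% below. The shares of the members sum to 1000 in every library, whereas those of other genes do not, so this is not a like measure. These counts therefore do not set the proteasome genes apart. Psmd7 had the most unequal share, with 13.2, 13.5, 6.81, 15.4 and 12.1 reads in neutrophil libraries, against 37.8, 39.1, 32.6 and 32.7 in LSK libraries. Psmb3, a beta subunit without a catalytic site, went the other way, with 13.4, 10.9, 18.0, 16.5 and 11.4 reads in neutrophil libraries, against 5.78, 7.21, 6.64 and 6.51 in LSK libraries. Neither pair of ranges overlapped, whichever genotype the libraries had.

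The other members below the LSK range included the lid subunit Psmd12, with means of 10.6 ± 2.63 reads per 1000 in neutrophil libraries and 21.3 ± 1.07 in LSK libraries (SD, n = 5 and 4). Psmd1 averaged 17.0 ± 5.66 in neutrophil libraries and 32.6 ± 3.14 in LSK libraries, and Psmc6 12.8 ± 3.07 in neutrophil libraries and 23.8 ± 2.99 in LSK libraries. Above the LSK range were Psma2, Psmb4, Psmb9, Psmd8, Psmd11 and Psme2. Psmb9 averaged 49.3 ± 12.9 reads per 1000 in neutrophil libraries and 28.3 ± 4.76 in LSK libraries, and Psmb4, the beta7 subunit, 30.5 ± 0.577 in neutrophil libraries and 22.0 ± 0.894 in LSK libraries. Psmd8, the Rpn12 lid subunit, averaged 39.0 ± 2.78 in neutrophil libraries and 26.4 ± 1.91 in LSK libraries.

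The test of neutrophils against LSK cells, with TMM scaling over all 9 libraries, called 16 members, 12 higher and 4 lower, beside 55.7% of 13816 genes, 25.5% higher and 30.2% lower. The 5 smallest p-values among the higher ones were those of Psmb3 (log2 1.42, edgeR adjusted p = 0.00439), Psmd11 (0.69), Psmd8 (0.88), Psmb4 (0.78) and Psmb9 (1.12). The 4 lower ones were Psmd7 (log2 -1.25, edgeR adjusted p = 0.000938), Psmd12 (-0.75), Psmd1 (-0.72) and Psmc6 (-0.68), and Psmc1 (-0.42) was next without passing (edgeR adjusted p = 0.0633). With total counted reads as the only scaling, 0 members were higher and 26 lower, and the median moved to -0.95, with -1.39 for all genes. Of the members, those below 0 with TMM and Psmb3 (0.11 under total reads) had the same direction under both scalings, and the rest turned. The members took 0.441%, 0.444%, 0.438%, 0.458% and 0.772% of counted reads in neutrophil libraries, against 0.886% to 1.19% in LSK libraries. Leaving out any 1 LSK library left 3 to 7 members called, and leaving out both neutrophil libraries that stood apart gave 25 (18 higher, 7 lower). The populations were also counted in separate tables, joined here by symbol, and processing and population cannot be told apart.

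**Figure D4:**
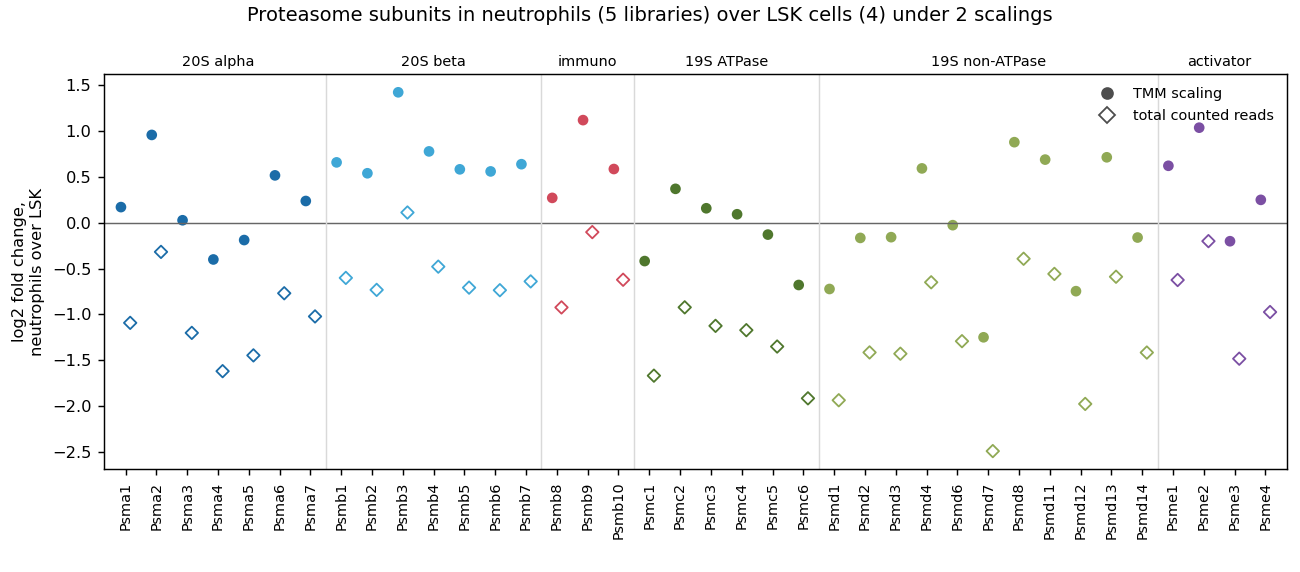
Log2 fold change of each proteasome subunit in neutrophils (5 libraries) over LSK cells (4 libraries), with TMM scaling (filled circles) and with total counted reads as the only scaling (open diamonds), coloured by class. The order of the genes is alike under both scalings, whereas nearly all points move below 0 under total reads, and Psmd7 is lowest under both.

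The exchange of catalytic subunits was compared between the populations by 3 ratios within a library, each by an exact two-sided permutation test of 5 against 4 libraries, whose smallest possible p is 0.0159. Log2 Psmb8 over Psmb5 averaged 1.19 ± 0.60 in neutrophil libraries and 1.56 ± 0.16 in LSK libraries (SD, exact permutation p = 0.27, adjusted over the 3 ratios 0.405). Log2 Psmb9 over Psmb6 averaged -0.42 ± 0.58 in neutrophil libraries and -0.996 ± 0.19 in LSK libraries (exact permutation p = 0.0794, adjusted 0.238). Log2 Psmb10 over Psmb7 averaged 0.38 ± 0.75 in neutrophil libraries and 0.56 ± 0.09 in LSK libraries (exact permutation p = 0.698). None passed, and all 3 ratios were several times more variable among neutrophil than among LSK libraries.

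Per length, as CPM per kilobase of the principal transcript, Psma7 was the most abundant subunit in LSK cells, at 840 in KO and 597 in WT libraries, and Psme4 the least, at 9.23 in KO and 8.39 in WT libraries. In neutrophils Psma6 led in KO libraries at 372 and Psma7 in WT libraries at 337, and Psme4 was again last, at 5.36 in KO and 3.05 in WT libraries. Without the third KO library Psma7 led the KO libraries at 229, Psma6 followed at 223, and Psma3 was last at 5.47. Among the catalytic subunits Psmb6 was the most abundant in every group, at 484 in KO and 381 in WT LSK cells. Psmb8 ranked 6 of 38 in both LSK groups, and Psmb9 ranked 14 in KO and 9 in WT LSK cells. Psmb5 was the least abundant of the 6 in every group, at 125 in KO and 85.5 in WT LSK cells and 61.7 in KO and 58.03 in WT neutrophils.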

How the data were processed

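RNA was extracted with RNeasy Micro columns and amplified with SMART-Seq v4, per the labels' protocols. The authors deposited raw counts per gene for each population, and the same counts divided by 1 factor per library (signal values, checked on all 38 members and not tested). STAR, featureCounts, bcl2fastq, DESeq2 and the builds mm10 and GRCm38 are named in the submitters' processing notes. Raw counts were tested with edgeR 4.0.16 (TMM, filterByExpr, robust quasi-likelihood F test, Benjamini-Hochberg adjustment) in R 4.3.3, within each population, and over all 9 libraries after joining 35219 genes by symbol. The edgeR tests were run on simulated counts with changes larger than that of any member in LSK cells, and the permutation test on simulated draws. These runs did not cover changes of the size reported for the members in LSK cells. Lengths came from GENCODE M21, promoters from RefSeq GRCm38.p6, and permutation tests from scipy 1.17.1. Described in full were the catalytic subunits, Psme1 and Psme2, and by p-value the first 2 members and the last of each class in LSK, the first 5 in neutrophils and the first 5 in each direction in the other contrasts; Psma6 in neutrophils, Psma4, Psmd14, Pomp, Nfe2l1, Tap1 and the members named by share of reads were added after their values were seen. Some genes of the lists that this rule would name are not reported here. The members and lists were chosen with earlier results of these data known. A floor of 3 reads corresponds to between 0.109 and 0.159 CPM. Alternatives were other scaling factors, no filter, DESeq2 1.42.0, a replicate block, leaving out libraries, and 2 chosen after seeing the data (total counted reads only, and leaving out both neutrophil libraries that stood apart).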

Additional observations from a re-analysis of the deposited data

How the results depend on the processing

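In LSK cells the count of 33 called members was 33 under RLE factors, without the expression filter and with replicate number as a block, 34 under DESeq2, 26 under upper-quartile factors and 23 under total counted reads only. It ranged from 19 to 33 when 1 library was left out (19 without WT replicate 2, 28 without WT replicate 1) and was 0 in the fit of all 9 libraries. In neutrophils and for the interaction the count was 0 under every setting tried, replicate block included, although all genes gave up to 891 calls in neutrophils (DESeq2) and up to 1404 for the interaction (without WT neutrophil replicate 1). For neutrophils against LSK cells the count of 16 was 13 with the replicate block, 10 without the expression filter, 26 under total counted reads only and 25 without both neutrophil libraries that stood apart, and ranged from 3 to 18 when 1 library was left out. Replicate numbers were not shown to pair the libraries: deviations of same-numbered libraries correlated at 0.00393 in LSK cells, and at 0.239 and -0.0241 in neutrophils. No ratio passed after adjustment in any setting. With the replicate block this was fixed in advance, since the smallest possible p is 0.0556. Leaving out libraries also raises the smallest possible p, so these settings do not show that the absence of a call is stable. Without WT neutrophil replicate 1, Psmb9 over Psmb6 did not overlap between the populations (log2 difference 0.74). Psmb10 over Psmb7 turned to 0.05 without KO neutrophil replicate 1. Log2 differences when 1 library was left out ranged from -0.58 to -0.24 for Psmb8 over Psmb5, 0.37 to 0.74 for Psmb9 over Psmb6 and -0.41 to 0.05 for Psmb10 over Psmb7. A change of direction is counted only where 1 of the 2 values passed the test. By that rule 21 members turned in neutrophils against LSK cells under total counted reads only, where the median of all genes was -1.39 (Psma1 -1.09, Psma2 -0.32, Psma3 -1.20, Psma7 -1.02, Psmb2 -0.73, Psmb4 -0.48, Psmb5 -0.71, Psmb6 -0.74, Psmb7 -0.64, Psmb8 -0.92, Psmb9 -0.10, Psmc2 -0.92, Psmc3 -1.13, Psmc4 -1.17, Psmd4 -0.65, Psmd8 -0.39, Psmd11 -0.56, Psmd13 -0.59, Psme1 -0.63, Psme2 -0.20, Psme4 -0.97), and 2 without the libraries that stood apart (Psma3 -0.52, Psmd3 0.26); the cause was not tested. All 38 members passed the expression filter, and with 2 or 3 libraries a group the number of libraries limits the precision.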
